A study of Rattus norvegicus with 20 samples.

Results

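The mitochondrial ribosomal protein genes were followed across whole tissue and synaptic fractions of rat ventral hippocampus. They were the genes whose symbol begins with Mrpl or Mrps and a number, pseudogene symbols excluded, that had a probe set naming no other gene. This gave 75 genes of 22093 with a named probe set, of which 46 carry a large subunit symbol (Mrpl) and 29 a small subunit symbol (Mrps). The brightest probe set by mean over all arrays stood for its gene, and Mrpl1 and Mrpl36 were the 2 genes with more than 1. All 75 lay above the level under which genes were not tested.

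The study injected a synthetic mimic of miR-17-5p, or a scrambled small RNA as the control, into the ventral hippocampus of both sides in male Sprague-Dawley rats aged 2 months. The mimic was given as 200 pmol in 1.5 µl, and 11 to 13 animals were assigned to each condition. RNA was taken from homogenate, the whole tissue extract, and from synaptoneurosomes, a preparation enriched in resealed synaptic endings. The 4 groups of 5 arrays were homogenate of control rats, homogenate of mimic rats, synaptoneurosomes of control rats and synaptoneurosomes of mimic rats. No uninjected rats were among the 20 arrays, so every group carries the surgery and an injected small RNA. The labels do not say whether the 5 arrays of a group are separate animals or pools, so the p-values measure the spread between these samples, which may be technical. The injected sequence itself was not used here; the RefSeq entry for rat miR-17-5p is shown because it is the molecule the treatment imitates, with the seed (bases 2 to 8) in capitals. It lies at chr15:98587861-98587883 on the plus strand of GRCr8 (Mir17). The same bases are also listed at chrX:137343615-137343637 on the minus strand (Mir106a).
miR-17-5p: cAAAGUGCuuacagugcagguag

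Mitochondria keep their own ribosome, the mitoribosome, which translates the few messages encoded by mitochondrial DNA into core subunits of the respiratory chain. Its RNA comes from mitochondrial DNA, but all its proteins are encoded in the nucleus, made on cytosolic ribosomes and imported. The small subunit reads the message, and the large subunit joins amino acids and passes the new protein towards the inner membrane. Many of these proteins have bacterial relatives, and others exist only in mitochondrial ribosomes. In neurons mitochondria also lie in axons, at presynaptic terminals and in dendrites.

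Values are the deposited log2 expression values, in which 1 unit is a doubling, and they are relative to the other genes on the same array. A gene was said to fall or rise where limma gave a Benjamini-Hochberg adjusted p below 0.05 over 15465 tested genes. Array medians over all probe sets ranged from 5.11 to 5.26. Of 8 listed excitatory neuron markers, 7 were named in the table and passed the level for testing. Synaptoneurosome control arrays 4 and 5 and synaptoneurosome mimic array 5 had stood apart from their groups in earlier results of these data. Counts of falls without these 3 arrays are given for all members and by subunit, and not for the other lists.

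Genes of both mitoribosomal subunits fell in synaptoneurosomes against homogenate, in each treatment, though not all of them did. In control rats 41 of 75 fell (54.7%) and none rose, beside 28.0% of all tested genes that fell and 11.8% that rose. In mimic rats 62 of 75 fell (82.7%) and none rose, beside 30.8% and 11.0% of all tested genes. The median difference over the 75 genes was -0.31 in control rats and -0.43 in mimic rats, against -0.06 and -0.08 over all tested genes. Single differences ran from -0.99 to 0.16 in control rats; in mimic rats all 75 lay below 0, between -1.32 and -0.05. Without the 3 arrays that had stood apart, 48 genes fell in control rats and 65 in mimic rats, beside 29.0% and 35.4% of all tested genes.

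The scaling of the arrays moved these counts. With the arrays forced to one common distribution, 16 of 75 genes fell in control rats (21.3%, beside 16% of all tested genes) and 40 in mimic rats (53.3%, beside 19.0%), with medians of -0.16 and -0.31. By subunit, 9 of 46 large and 7 of 29 small subunit genes fell in control rats under this scaling. That scaling also moved the share of rises among all changed genes to 49.5% in control rats (29.6% as deposited) and to 41.4% in mimic rats (26.3%). After centring every array on its median, 41 and 66 genes fell, beside 30.2% and 37.1% of all tested genes, and rises made up 23.0% and 15.7% of all changes. No member rose in either treatment under any of these settings. Among members named here, the common distribution ended 11 calls in control rats (Mrpl10, Mrpl36, Mrpl37, Mrpl58, Mrps2, Mrps7, Mrps11, Mrps18a, Mrps25, Mrps27 and Mrps30, limma adjusted p from 0.0568 to 0.488) and 9 in mimic rats (Mrpl1, Mrpl34, Mrpl44, Mrpl45, Mrps2, Mrps18b, Mrps24, Mrps25 and Mrps34, adjusted p from 0.0589 to 0.736).

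**Figure D1:**
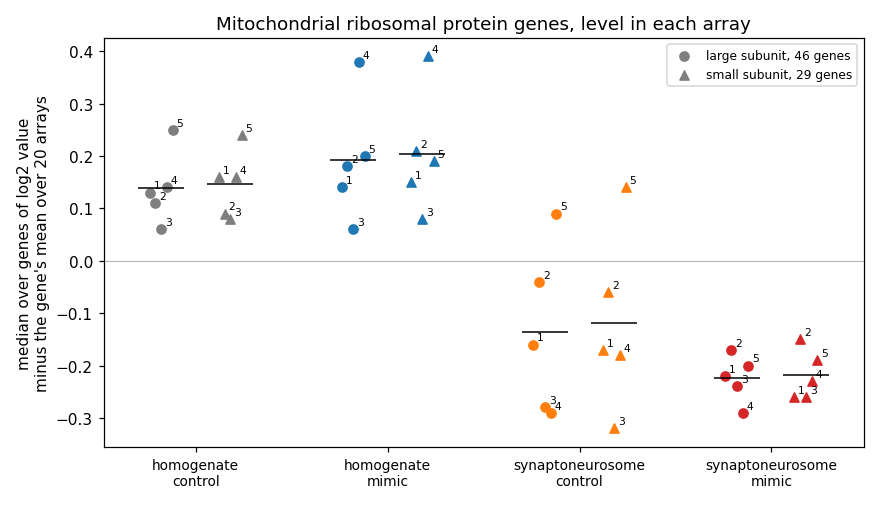
Level of the large subunit genes (circles, 46 genes) and small subunit genes (triangles, 29 genes) in each of the 20 arrays, as the median over genes of the log2 value minus that gene's mean over all arrays; bars are group means and the small numbers name the array. All homogenate arrays lie between 0.06 and 0.39, and all synaptoneurosome arrays but control array 5 lie below 0.

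The array levels of both subunits moved together. In homogenate of control rats the median over the 75 genes, each set against its own mean over 20 arrays, was 0.15, 0.10, 0.06, 0.15 and 0.24 in arrays 1 to 5. In homogenate of mimic rats it was 0.15, 0.19, 0.08, 0.38 and 0.20. Homogenate mimic array 4 was thus the highest of the 20. In synaptoneurosomes the medians were -0.17, -0.04, -0.30, -0.23 and 0.10 in control rats and -0.24, -0.16, -0.24, -0.26 and -0.20 in mimic rats. Synaptoneurosome control array 5 lay inside the homogenate range, and the mimic synaptoneurosome arrays lay closer to each other than the control ones, with an SD of 0.04 against 0.16. The large subunit median minus the small subunit median ran only from -0.11 to 0.04 across arrays, and the correlation of the 2 medians was 0.99 over 20 arrays, which share the same normalisation. Group means were left in, so the difference between the fractions enters this correlation. Without synaptoneurosome control array 5, 29 large and 20 small subunit genes fell in control rats, against 22 and 19 with it. The share of all tested genes that fell without this array is not given here. Leaving out 1 array at a time also moved the calls over all tested genes in control rats, which ran from 5428 to 6748, rises and falls together.

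Among large subunit genes, 22 of 46 fell in control rats (47.8%, median -0.26) and 38 of 46 in mimic rats (82.6%, median -0.46). Among small subunit genes the counts were 19 of 29 (65.5%, median -0.32) and 24 of 29 (82.8%, median -0.38). Of all tested genes 28.0% fell in control rats and 30.8% in mimic rats. Without the 3 arrays that had stood apart, 28 large and 20 small subunit genes fell in control rats. In mimic rats these counts were 38 and 27, and 29.0% and 35.4% of all tested genes fell in the 2 treatments. Whether the subunits differ from each other was not tested. The subunit names follow the symbols, although the products of Mrps18a and Mrps30 sit in the large subunit. The name Mrps36 is now used for a subunit of 2-oxoglutarate dehydrogenase, and its probe set carries no gene number in the annotation.

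Mrpl17, whose product lies near the exit of the tunnel through which the new protein leaves the large subunit, had the largest fall of the 75. Its log2 values were 9.69, 9.57, 9.38, 9.51 and 9.70 in homogenate and 8.41, 8.72, 8.20, 8.59 and 8.97 in synaptoneurosomes of control rats. In mimic rats they were 9.71, 9.67, 9.73, 9.80 and 9.83 in homogenate and 8.25, 8.41, 8.29, 8.41 and 8.76 in synaptoneurosomes. The fractions did not overlap in either treatment, and the spread was wider in synaptoneurosomes. Mrpl17 fell by 0.99 ± 0.12 in control rats (SE, 5 against 5 arrays, limma adjusted p = 4.61e-06) and fell by 1.32 ± 0.12 in mimic rats (adjusted p = 1.67e-07), that is to 0.503 and 0.399 times the homogenate level.

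Other conserved large subunit genes fell by smaller amounts. Mrpl15 fell by 0.48 ± 0.08 in both treatments (limma adjusted p = 0.000221 in control and 0.000182 in mimic rats). Mrpl32, whose precursor is cut by a protease of the inner membrane before it joins the ribosome, fell by 0.46 ± 0.09 and 0.48 ± 0.09 (adjusted p = 0.000541 and 0.000322). Mrpl47 fell by 0.37 ± 0.07 and 0.51 ± 0.07 (adjusted p = 0.000448 and 1.61e-05). These 3 genes and Mrpl17 kept their calls with any 1 array left out and with the arrays forced to one distribution. Of the 26 conserved large subunit genes 15 fell in control (57.7%) and 23 in mimic rats (88.5%), with medians of -0.34 and -0.49. Of all tested genes 28.0% and 30.8% fell.

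Mrpl36, a short conserved protein, had log2 values of 6.49, 6.49, 6.41, 7.04 and 6.98 in homogenate and 6.08, 6.08, 5.33, 5.70 and 6.84 in synaptoneurosomes of control rats. The fractions overlapped, since synaptoneurosome control array 5 lay above 3 homogenate arrays. Its difference was -0.68 ± 0.22 (limma adjusted p = 0.0225) in control rats and -1.11 ± 0.22 (adjusted p = 0.000645) in mimic rats. The call in control rats was lost, with adjusted p from 0.0573 to 0.0673, when any of 4 arrays was left out: homogenate control 4 or 5, or synaptoneurosome control 3 or 4. The second probe set of Mrpl36 gave -0.76 and -1.10, and that of Mrpl1 gave -0.26 and -0.32 beside -0.50 and -0.52.

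The stalk of the large subunit recruits translation factors and is built around Mrpl10 and Mrpl12, with Mrpl53 and Mrpl54 at its base. Mrpl10 fell without overlap of the fractions in both treatments, by 0.32 ± 0.08 (limma adjusted p = 0.00349) and 0.52 ± 0.08 (adjusted p = 4.96e-05). Mrpl12 had -0.19 ± 0.08 in control rats (adjusted p = 0.0574) and -0.24 ± 0.08 in mimic rats (adjusted p = 0.0164). In control rats Mrpl12 passed without synaptoneurosome control array 5 (adjusted p = 0.00326) and with same-numbered arrays treated as pairs (adjusted p = 0.029). Mrpl53 varied widely between arrays: its values were 8.27, 7.67, 7.08, 7.70 and 7.97 in homogenate and 6.88, 7.88, 6.89, 6.99 and 8.52 in synaptoneurosomes of control rats. In control rats its difference was -0.31 ± 0.29 (adjusted p = 0.42), with synaptoneurosome arrays 2 and 5 inside or above the homogenate range. In mimic rats all 5 synaptoneurosome arrays (6.60 to 7.02) lay below all homogenate arrays (7.61 to 8.77), with a fall of 1.09 ± 0.29 (adjusted p = 0.0058). Mrpl54 had 0.00 ± 0.15 and -0.25 ± 0.15 (adjusted p = 0.993 and 0.193).

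Mrpl45 and Mrpl23, also at the tunnel exit, had smaller differences than Mrpl17. Mrpl45, which holds the ribosome to the inner membrane, had -0.08 ± 0.08 in control rats (limma adjusted p = 0.405) and -0.23 ± 0.08 in mimic rats (adjusted p = 0.0235). That call was lost, with adjusted p from 0.0505 to 0.07, without homogenate mimic array 4 or 5 or synaptoneurosome mimic array 4 or 5. Mrpl23 had 0.00 ± 0.07 and -0.13 ± 0.07 (adjusted p = 0.984 and 0.148).

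There were 21 proteins listed as having no counterpart in the bacterial large subunit, Mrps18a and Mrps30 included. Of their genes 8 fell in control (38.1%) and 16 in mimic rats (76.2%), beside 28.0% and 30.8% of all tested genes. Their medians were -0.20 and -0.39. Mrpl37 did not overlap between fractions in either treatment: in control rats it had 6.53 to 6.65 in homogenate and 6.17 to 6.36 in synaptoneurosomes, and in mimic rats 6.51 to 6.78 and 6.12 to 6.40. It fell by 0.32 ± 0.06 and 0.40 ± 0.06 (limma adjusted p = 0.000463 and 4.81e-05). Mrpl41 fell by 0.59 ± 0.13 and 0.84 ± 0.13 (adjusted p = 0.00126 and 3.95e-05). Its near copy Mrpl41l1 gave -0.48 ± 0.16 and -0.84 ± 0.16, and probes of the 2 genes may share targets. Mrpl58, a peptide-releasing enzyme built into the ribosome that frees stalled chains, fell by 0.42 ± 0.10 and 0.59 ± 0.10 (adjusted p = 0.00215 and 9.44e-05). Mrps30 fell by 0.43 ± 0.14 and 0.73 ± 0.14 (adjusted p = 0.0171 and 0.00034), with an adjusted p of 0.0514 in control rats when synaptoneurosome control array 3 was left out. Mrpl44, a relative of double-strand RNA nucleases, had -0.23 ± 0.09 in control rats (adjusted p = 0.0588, or 0.0295 with same-numbered arrays treated as pairs) and -0.26 ± 0.09 in mimic rats (adjusted p = 0.0326), and 6 arrays of mimic rats (homogenate 2, 3, 4 and 5, synaptoneurosome 4 and 5) each carried the mimic call (adjusted p 0.053 to 0.0974 without 1 of them).

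**Figure D2:**
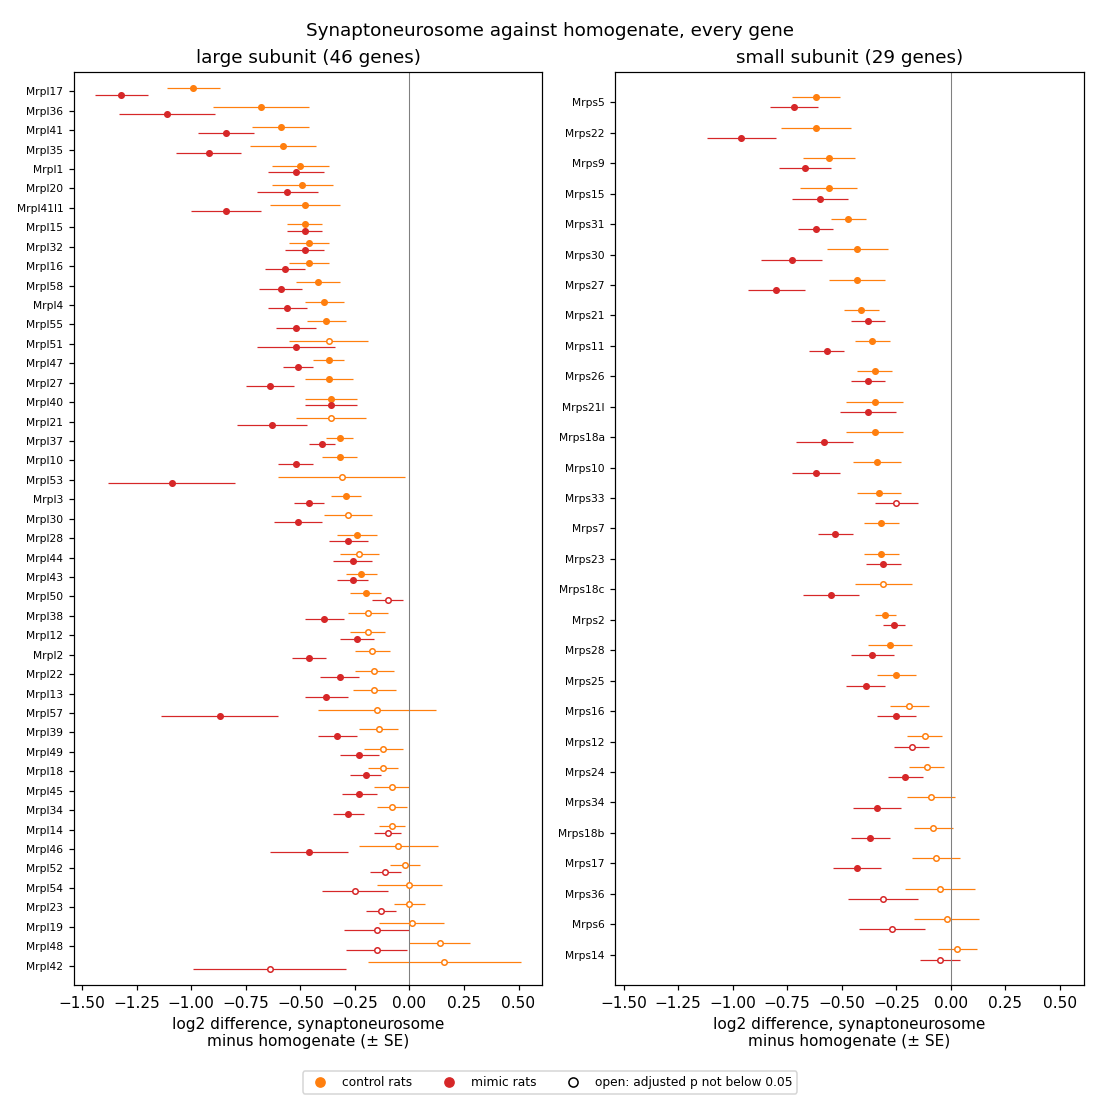
Synaptoneurosome minus homogenate log2 difference (± SE, limma, 5 against 5 arrays) of the 46 large and 29 small subunit genes by symbol, in control rats (orange) and mimic rats (red); filled points have an adjusted p below 0.05. Nearly all points lie left of 0: the control rats span -0.99 to 0.16 and the mimic rats -1.32 to -0.05.

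In the small subunit, the proteins found only in mitochondria held 7 falls among 8 genes in each treatment, with medians of -0.34 and -0.38. This was 87.5% in each, beside 28.0% and 30.8% of all tested genes. Mrps31 had log2 values of 6.83, 6.78, 6.75, 6.58 and 6.69 in homogenate and 6.26, 6.39, 6.20, 6.12 and 6.32 in synaptoneurosomes of control rats. In mimic rats the values were 7.00, 6.77, 6.68, 6.86 and 6.58 in homogenate and 6.06, 6.34, 6.14, 6.11 and 6.16 in synaptoneurosomes. The fractions did not overlap, and Mrps31 fell by 0.47 ± 0.08 (limma adjusted p = 0.000155) and 0.62 ± 0.08 (adjusted p = 8.04e-06). Mrps22 was tight in homogenate of control rats (8.82 to 8.89) and wide in their synaptoneurosomes, with 8.10, 8.06, 7.71, 8.39 and 8.96. Synaptoneurosome control array 5 was therefore above every homogenate control array of Mrps22, while in mimic rats the fractions were apart (7.75 to 8.29 against 8.77 to 9.09). Mrps22 fell by 0.62 ± 0.16 (adjusted p = 0.00532) and 0.96 ± 0.16 (adjusted p = 0.000121). Mrps27, a protein with pentatricopeptide repeats, fell by 0.43 ± 0.13 (adjusted p = 0.0122) and 0.80 ± 0.13 (adjusted p = 7.29e-05).

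Of the 17 conserved small subunit genes, 9 fell in control (52.9%) and 14 in mimic rats (82.4%), with medians of -0.30 and -0.38. Over all tested genes the shares were 28.0% and 30.8%. Mrps5, which lines the entry of the messenger RNA channel, did not overlap between fractions in either treatment: its values were 9.12 to 9.50 against 8.44 to 8.86 in control rats and 9.03 to 9.59 against 8.42 to 8.74 in mimic rats. It fell by 0.62 ± 0.11 and 0.72 ± 0.11 (limma adjusted p = 0.000262 and 4.96e-05). Mrps9 fell by 0.56 ± 0.12 and 0.67 ± 0.12 (adjusted p = 0.00113 and 0.000194). Mrps21 fell by 0.41 ± 0.08 and 0.38 ± 0.08 (adjusted p = 0.000759 and 0.00123), and its copy Mrps21l gave -0.35 and -0.38, a value that may share probe targets with Mrps21. Mrps2 fell by 0.30 ± 0.05 and 0.26 ± 0.05 (adjusted p = 0.000267 and 0.000791), with adjusted p of 0.195 and 0.492 when the arrays were forced to one distribution. Mrps28 fell by 0.28 ± 0.10 and 0.36 ± 0.10 (adjusted p = 0.0314 and 0.007). In control rats that call rested on homogenate control arrays 2 and 3 and synaptoneurosome control array 3, with adjusted p from 0.0859 to 0.0905 when 1 of them was left out.

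Mrps18a, Mrps18b and Mrps18c are 3 paralogues of 1 bacterial protein, and the first is used in the large subunit. Mrps18a had -0.35 ± 0.13 in control rats (limma adjusted p = 0.039) and fell by 0.58 ± 0.13 in mimic rats (adjusted p = 0.00162). In control rats its adjusted p lay between 0.0552 and 0.105 when homogenate control array 1, 2 or 5 or synaptoneurosome control array 1, 3 or 4 was left out. Mrps18b and Mrps18c passed in mimic rats, with -0.37 ± 0.09 (adjusted p = 0.00258) and -0.55 ± 0.13 (adjusted p = 0.00234). In control rats the same 2 genes had -0.08 ± 0.09 (adjusted p = 0.503) and -0.31 ± 0.13 (adjusted p = 0.0607), and the latter became 0.032 with same-numbered arrays treated as pairs. Mrps12, which lies at the site where codon and anticodon meet, had -0.12 ± 0.08 and -0.18 ± 0.08 (adjusted p = 0.239 and 0.0833). Mrps24 had -0.11 ± 0.08 in control and -0.21 ± 0.08 in mimic rats (adjusted p = 0.298 and 0.0481), and the second call was lost without any 1 of 14 arrays (homogenate control 1 to 4, homogenate mimic 2 to 5, synaptoneurosome control 1, 2 and 4, synaptoneurosome mimic 1, 3 and 4), with adjusted p from 0.0509 to 0.135. Mrps36 had -0.05 ± 0.16 and -0.31 ± 0.16 (adjusted p = 0.804 and 0.124).

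The 2 treatments share no arrays in the comparison of fractions, but their tests share an estimate of the spread over all 20 arrays and so are not independent. Of the 75 genes 39 fell in both, which is 95.1% of those that fell in control rats and 62.9% of those in mimic rats. Over all tested genes 3808 fell in both (24.6%), which is 87.9% and 80.1% of those that fell in each treatment. Mrpl50 and Mrps33 fell in control rats only by the threshold, 23 genes passed only in mimic rats, and 11 passed in neither. Those 11 were Mrpl14, Mrpl19, Mrpl23, Mrpl42, Mrpl48, Mrpl52, Mrpl54, Mrps6, Mrps12, Mrps14 and Mrps36. Passing in 1 treatment alone does not show a difference between treatments, which was tested for every gene with the effect of the mimic. All 5 synaptoneurosome arrays lay below all 5 homogenate arrays for 20 genes in control rats (26.7%, beside 17.5% of all tested genes) and for 55 genes in mimic rats (73.3%, beside 25.4%), and 19 genes did so in both (25.3%, beside 14.6%).

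Mrps14 and Mrpl42 were picked after their values were seen, as examples of genes that passed in neither treatment. Mrps14, a conserved protein of the small subunit, had means of 6.89 and 6.92 in homogenate and synaptoneurosomes of control rats and 6.92 and 6.87 in those of mimic rats, with overlapping arrays throughout. Mrpl42 was uneven: synaptoneurosome control arrays 2 and 5 had 10.57 and 10.61, and the other 3 had 9.13, 8.97 and 8.62. In mimic rats homogenate array 4 had 10.77 and the other 4 had 9.57 to 9.71, while the synaptoneurosome arrays lay between 9.13 and 9.33. Its fraction differences of 0.16 ± 0.35 and -0.64 ± 0.35 (limma adjusted p = 0.732 and 0.146) did not pass.

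**Figure D3:**
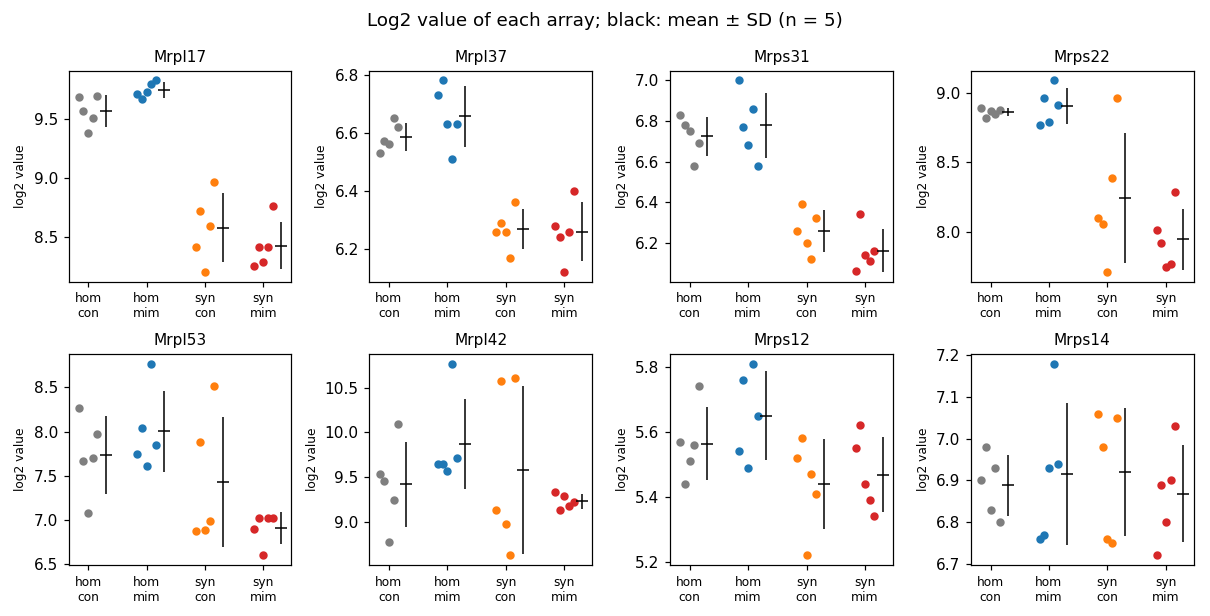
Log2 value in each of the 20 arrays (points) with mean ± SD (black, n = 5) for 8 genes, grouped as homogenate (hom) or synaptoneurosome (syn) of control (con) or mimic (mim) rats. Mrpl17, Mrpl37 and Mrps31 do not overlap between fractions, Mrps22 and Mrpl53 do so in control rats through high synaptoneurosome arrays, and Mrpl42, Mrps12 and Mrps14 passed in neither treatment.

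Genes that work with the mitoribosome were read in the same way. All 5 mitoribosomal proteins with other names had negative differences: 3 fell in control and 5 in mimic rats. Beside these, 28.0% and 30.8% of all tested genes fell. Dap3, a GTP-binding small subunit protein, fell by 0.27 ± 0.06 and 0.38 ± 0.06 (limma adjusted p = 0.00131 and 4.85e-05), and Ptcd3 fell by 0.53 ± 0.13 and 0.57 ± 0.13 (adjusted p = 0.0038 and 0.00183). Of 27 tested assembly factors 13 fell in control (48.1%) and 17 in mimic rats (63.0%), with medians of -0.22 and -0.34 and no rise. Among them Rbfa, which matures the small subunit RNA, fell by 0.72 ± 0.08 and 0.94 ± 0.08 (adjusted p = 3.39e-06 and 1.52e-07). Trub2, a pseudouridine synthase, fell by 0.77 ± 0.12 and 0.88 ± 0.12, and Mterf3, needed for ribosome assembly, by 0.51 ± 0.08 and 0.65 ± 0.08.

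Of 20 mitochondrial translation factors 8 fell in control (40.0%) and 12 in mimic rats (60.0%), with medians of -0.18 and -0.28. Of all tested genes 28.0% and 30.8% did. The recycling factor Mrrf fell by 0.41 ± 0.09 and 0.32 ± 0.09 (limma adjusted p = 0.000977 and 0.00642), and the elongation factor relative Guf1 by 0.43 ± 0.09 and 0.40 ± 0.09. Gatc, a subunit of the enzyme that amidates glutamyl-tRNA to glutaminyl-tRNA, fell by 0.51 ± 0.11 in both treatments. Its partner Qrsl1 had -0.21 ± 0.10 in control rats (limma adjusted p = 0.0891) and fell by 0.44 ± 0.10 in mimic rats. Of 16 mitochondrial aminoacyl-tRNA synthetases 4 fell in each treatment (25%, beside 28.0% and 30.8% of all tested genes) and 1 rose in control rats, with medians of -0.14 and -0.15. Cars2 and Rars2 were among the 4, at -0.41 ± 0.05 and -0.41 ± 0.06 in control rats. Of 9 genes for transcription and upkeep of mitochondrial DNA 5 fell in each treatment (55.6%). Among them were Ssbp1 (-0.61 ± 0.07 and -0.64 ± 0.07) and Tfb2m (-0.55 ± 0.13 and -0.79 ± 0.13).

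Nuclear-encoded subunits of oxidative phosphorylation, the complexes that the mitoribosome's products join, showed 30 falls and 1 rise among 71 tested genes in control rats. In mimic rats they showed 55 falls and no rise, and the medians were -0.37 and -0.65. The falls were 42.3% and 77.5% of the list, beside 28.0% and 30.8% of all tested genes. The complex I subunits Ndufv3 and Ndufc1 fell by 0.65 ± 0.07 and 0.65 ± 0.08 in control rats and by 0.71 ± 0.07 and 0.74 ± 0.08 in mimic rats. Cytosolic ribosomal proteins did otherwise: of 70 tested, control rats had 1 fall and 4 rises and mimic rats 2 falls and 1 rise, with medians of 0.12 and -0.08. Rplp0, a stalk protein of the cytosolic ribosome, rose by 0.70 ± 0.19 and 0.64 ± 0.19 (limma adjusted p = 0.00764 and 0.0124). Rps7 had 1.02 ± 0.33 and 0.18 ± 0.33 (adjusted p = 0.019 and 0.691), and Rpl27 fell by 0.39 ± 0.13 and 0.51 ± 0.13 (adjusted p = 0.0227 and 0.00355). The difference between lists was not tested.

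**Figure D4:**
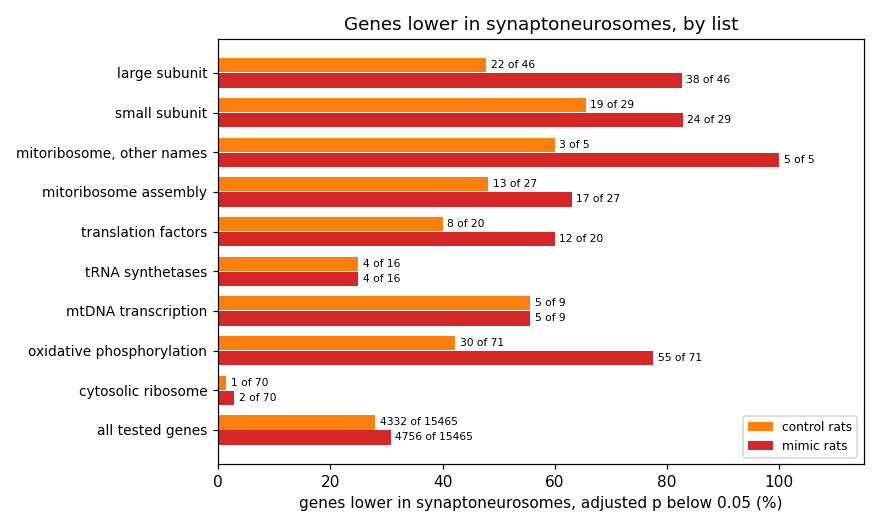
Share of tested genes with a lower value in synaptoneurosomes than in homogenate (limma adjusted p below 0.05) in control (orange) and mimic (red) rats, by gene list, with counts beside the bars. The mitochondrial ribosomal genes stand at 47.8% and 65.5% in control rats, above the 28.0% of all tested genes, while the cytosolic ribosomal proteins stand at 1.43%.

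Markers of cell types moved between the fractions as well. All 7 tested endothelial markers fell in both treatments, with medians of -2.27 and -2.25. The median of these markers on an array, each set against its own mean, ran from 0.82 to 1.35 in homogenate and from -1.33 to -0.92 in synaptoneurosomes. Of 8 astrocyte markers 5 rose in each treatment (medians 0.46 and 0.39), and of 8 microglial markers 4 rose in control and 2 in mimic rats. Of 7 excitatory neuron markers 3 rose and 3 fell in each treatment. Of 8 interneuron markers 2 rose in control rats, and 1 rose and 3 fell in mimic rats. Of 7 oligodendrocyte markers 1 fell in each treatment, of 8 mural and fibroblast markers 3 fell in control rats, 4 fell in mimic rats and 1 rose in each, and of 6 choroid plexus markers 1 fell in control rats and none in mimic rats. Meg3, the only 1 of 3 listed nuclear RNAs that was named among the probe sets used, fell by 1.65 ± 0.36 and 1.42 ± 0.36 (limma adjusted p = 0.00139 and 0.00379). Its lowest levels, set against its own mean, were in the 3 arrays that had stood apart (-1.71, -1.6 and -1.59). In mimic rats its fractions overlapped, with -0.18 in homogenate array 5 and -0.09 in synaptoneurosome array 3. In bulk RNA such as this, fewer cells or fragments of a type and less RNA in each cannot be told apart. The part of these markers in the fall of the mitochondrial ribosomal genes was not tested.

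No mitochondrial ribosomal gene passed the test for an effect of the mimic in either fraction, and no gene on the array did (0.0% called by limma in homogenate, 0.0% in synaptoneurosomes). In homogenate 60 of the 75 genes had a mean above 0 in mimic against control rats (80.0%, beside 59.3% of all tested genes), with a median of 0.07 against 0.02. The adjusted p was 1 for all of them, and 1 gene had an unadjusted p below 0.05 (268 among all tested genes). That gene was Mrpl41, with 0.27 ± 0.13. Other lists leaned the same way with no call: 66 of 71 oxidative phosphorylation genes (median 0.11), 52 of 70 cytosolic ribosomal proteins (0.08) and 8 of 8 microglial markers (0.19) were above 0. Without homogenate mimic array 4, the array with the highest level of these genes, the median was 0.03, and without homogenate control array 3 it was 0.04.

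In synaptoneurosomes 64 of the 75 genes had a mean below 0 in mimic against control rats (85.3%, beside 54.1% of all tested genes), with a median of -0.10 against -0.01. The smallest adjusted p was 0.933, and 2 genes had an unadjusted p below 0.05 (542 among all tested genes). They were Mrpl2, which lies by the centre where peptide bonds form (-0.21 ± 0.08), and Mrpl34 (-0.15 ± 0.07). Without synaptoneurosome control array 5, which stood near the homogenate level, the median was -0.04. Without the 3 arrays that had stood apart it was -0.07. Large subunit genes were below 0 in 41 of 46 cases and small subunit genes in 23 of 29. In the same comparison 63 of 71 oxidative phosphorylation genes (median -0.16), 55 of 70 cytosolic ribosomal proteins (-0.10), 8 of 8 interneuron markers (-0.40) and 7 of 8 mural and fibroblast markers (-0.35) were below 0. The array level of the interneuron markers was 1.01 and 1.39 in synaptoneurosome control arrays 4 and 5 and 1.28 in mimic array 5. These are the 3 arrays that had stood apart, and the other synaptoneurosome arrays ran from -0.85 to -0.20. The level of the mural and fibroblast markers ran from -0.47 to 0.68 in control and from -0.74 to -0.36 in mimic synaptoneurosomes. The part of these arrays and markers in the shift of the mitochondrial ribosomal genes was not tested.

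**Figure D5:**
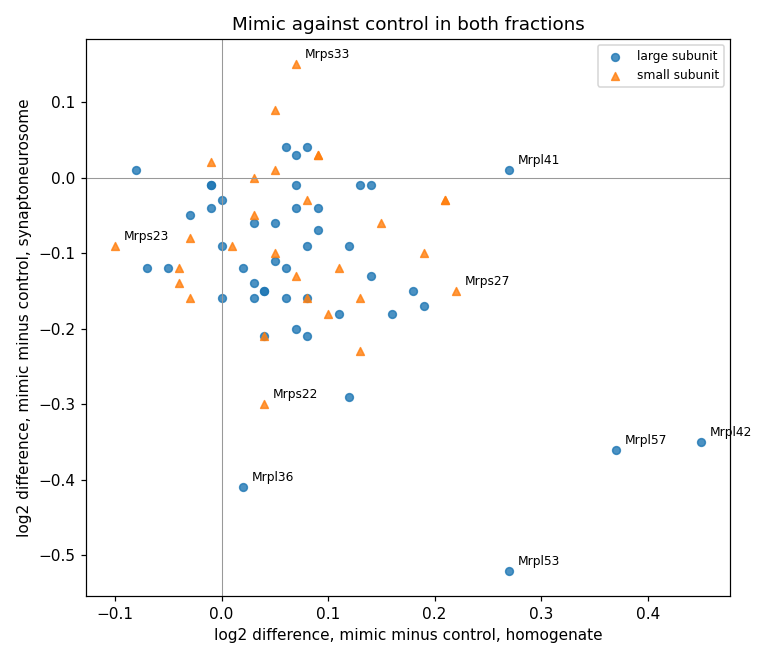
Mimic minus control log2 difference of each of the 75 genes in homogenate (horizontal) and synaptoneurosomes (vertical), for large (circles) and small (triangles) subunit genes. Most points lie right of and below 0, at 51 of 75 genes, and none passed the test in either fraction.

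Means above 0 in homogenate and below 0 in synaptoneurosomes were found together for 51 of the 75 genes (beside 31.8% of all tested genes). The test of the difference itself, the mimic effect in synaptoneurosomes minus that in homogenate, called no gene (0.0% of all tested genes by limma). Its smallest adjusted p over the 75 genes was 0.998, its median was -0.16 against -0.03 over all tested genes, and 69 genes were below 0 (92.0%, beside 57.8%). Unadjusted p below 0.05 was reached by 3 members (243 among all tested genes): Mrpl2 with -0.29 ± 0.12, Mrps17 with -0.36 ± 0.16 and Mrps18b with -0.29 ± 0.13. Below 0 as well were 68 of 71 oxidative phosphorylation genes (median -0.27), 58 of 70 cytosolic ribosomal proteins (-0.15) and all 8 interneuron, 8 microglial and 8 mural and fibroblast markers (-0.42, -0.23 and -0.16). Over the mitochondrial ribosomal genes the median was -0.11 without homogenate mimic array 4 and -0.11 without synaptoneurosome control array 5.

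The widest single differences under the mimic came from genes that varied between replicates. Mrpl42 had 0.45 ± 0.35 in homogenate and -0.35 ± 0.35 in synaptoneurosomes. Mrpl57, found only in mitochondrial ribosomes, had 0.37 ± 0.27 and -0.36 ± 0.27, and Mrpl53 had 0.27 ± 0.29 and -0.52 ± 0.29. Each of these differences was smaller than 2 of its standard errors. Mrpl36 had 0.02 ± 0.22 and -0.41 ± 0.22, where its second probe set gave 0.10 and -0.24.

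Within groups the mitochondrial ribosomal genes varied together. After group means were removed, the median correlation between pairs of members over 20 arrays was 0.44, beside 0.06 between members and other tested genes. The correlation of a member with the mean of the members ran from -0.06, for Mrps2, to 0.93, with a median of 0.69. The tested genes outside the set whose pattern was most like that mean were Vps28, a subunit of a membrane-sorting complex (r = 0.97 over 20 arrays), the complex IV subunit Cox6a1 (r = 0.97) and the complex I subunit Ndufs6 (r = 0.96). The points share their arrays and normalisation, and arrays at the extremes of the members' level (homogenate mimic 4 and synaptoneurosome control 5) enter each of these values. The same 2 arrays had oxidative phosphorylation medians of 0.59 and 0.31 and cytosolic ribosomal protein medians of 0.40 and 0.19. The median SD of a member was 0.11 and 0.14 in homogenate of control and mimic rats and 0.21 and 0.13 in their synaptoneurosomes, against 0.12, 0.11, 0.21 and 0.17 for all tested genes.

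Promoters were examined for 60 of the 75 genes, those with a promoter in the RefSeq table used here (GRCr8, 250 bases before to 50 after a transcript start). That start lay within 100 bases of the outer end of the gene for 45 of them and 112 to 18658 bases inside the gene for the other 15. The letters searched, on both strands, were GCGC, any 1 base and TGCGC in a row (NRF1, a regulator of nuclear genes for mitochondria), CCGGAAG (the ETS family, which includes GABP) and AANATGGCG (YY1). They were found in 9 (15.0%), 20 (33.3%) and 13 (21.7%) of the 60, against 4.71%, 9.22% and 3.33% of 27457 promoters and 6.08%, 11.2% and 4.0% of 18999 protein-coding ones. At least 1 of them was present in 32 of 60 (53.3%), beside 15.3% of all promoters. By call it was present in 17 of 32 genes that fell in both treatments (53.1%), 8 of 18 that passed only in mimic rats (44.4%) and 6 of 8 that passed in neither (75.0%). Such a match is a description of these letters, not of a bound site. Shown as examples, with matches in capitals, are the promoters of Mrpl17, the gene with the largest fall (chr1:169575650-169575949, minus strand, NRF1), of Mrps21 (chr2:186103302-186103601, minus strand, ETS on the opposite strand), of Mrps27 (chr2:32473954-32474253, plus strand, ETS on the opposite strand and YY1) and of Mrps14, which passed in neither treatment (chr13:74962347-74962646, plus strand, YY1).
Mrpl17: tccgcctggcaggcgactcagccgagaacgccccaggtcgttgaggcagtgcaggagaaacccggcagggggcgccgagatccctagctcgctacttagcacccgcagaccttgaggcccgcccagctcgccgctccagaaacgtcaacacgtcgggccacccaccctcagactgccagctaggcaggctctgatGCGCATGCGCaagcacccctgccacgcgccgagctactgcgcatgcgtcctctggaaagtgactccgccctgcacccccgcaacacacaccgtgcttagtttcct
Mrps21: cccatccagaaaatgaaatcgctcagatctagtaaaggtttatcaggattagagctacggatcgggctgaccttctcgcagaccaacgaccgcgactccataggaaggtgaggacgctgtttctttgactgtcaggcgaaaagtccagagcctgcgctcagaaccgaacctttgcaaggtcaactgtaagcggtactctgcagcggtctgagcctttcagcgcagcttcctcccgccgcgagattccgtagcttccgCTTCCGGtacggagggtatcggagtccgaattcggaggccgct
Mrps27: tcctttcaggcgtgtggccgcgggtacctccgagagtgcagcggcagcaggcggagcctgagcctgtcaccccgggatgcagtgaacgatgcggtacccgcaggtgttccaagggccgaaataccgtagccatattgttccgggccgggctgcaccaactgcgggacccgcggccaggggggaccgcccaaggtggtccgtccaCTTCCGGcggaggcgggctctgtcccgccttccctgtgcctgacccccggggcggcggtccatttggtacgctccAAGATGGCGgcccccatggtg
Mrps14: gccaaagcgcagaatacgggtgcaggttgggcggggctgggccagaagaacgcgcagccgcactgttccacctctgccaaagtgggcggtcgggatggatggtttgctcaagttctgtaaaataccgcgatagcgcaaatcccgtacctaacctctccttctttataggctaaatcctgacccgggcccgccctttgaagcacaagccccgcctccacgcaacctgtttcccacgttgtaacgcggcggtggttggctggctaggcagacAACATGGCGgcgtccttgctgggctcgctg
Taken singly, NRF1, ETS and YY1 letters were present in 3, 12 and 9 of the 32 genes that fell in both treatments. They were present in 5, 5 and 1 of the 18 that passed only in mimic rats. Among the 8 that passed in neither, they were present in 1, 3 and 2. Whether matches differ between these sets, or have a part in the falls, was not tested.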

How the data were processed

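Expression was measured on microarrays from 100 ng of total RNA per sample, and groups and array numbers came from the sample titles. The deposited log2 values were made by the authors with Transcriptome Analysis Console and RMA, per the submitters' processing notes, with versions not given in the sources used here. Changes of dim transcripts may be compressed in such values, and the extent of this was not tested. There were 68842 probe sets in the table, of which 23446 name 1 gene, 505 several and 44891 none here. Mrpl53, Mrps34, Mrps35 and Mrpl33 each also share a probe set with another gene, which was not used, and Mrps35 and Mrpl33 were not analysed here.

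The brightest probe set stood for its gene, and the lowest 30% by mean (below 4.97) were left out. limma 3.58.1 in R 4.3.3 fitted 4 group means (16 residual and 2.56 prior degrees of freedom) with two-sided tests and Benjamini-Hochberg adjustment. The spread is shared by all groups, so errors are the same in both fractions although synaptoneurosome control arrays varied more. The number of arrays limits the precision. The script was tested on simulated data. Tables and plots used Python 3.11.15, numpy 2.4.6, pandas 2.3.3 and matplotlib 3.10.9.

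Same-numbered homogenate and synaptoneurosome arrays of a treatment deviated together: all 10 pairs correlated over 0.1, from 0.102 to 0.476, and 10 of 10 arrays matched their own number best. The numbers were therefore taken to pair the samples. The main fit, and every SE and adjusted p not marked otherwise, left this pairing out. A random block by number was the alternative. Other alternatives were no filter, a filter at 50%, quantile scaling, median centring, the mean of all probe sets, an intensity trend, array weights, only the groups compared, and leaving out each array or the 3 arrays that stood apart.

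The members and lists were chosen with earlier results of these data known. Named members are the 5 of each subunit with the largest statistic in each comparison and a written list of stalk, tunnel and other proteins, and of other lists the 2 leading genes. Genes outside this rule are Mrpl42, Mrps14, Mrpl50, Mrps33, Mrpl14, Mrpl19, Mrpl48, Mrpl52, Mrpl41l1 and Mrps21l, chosen after their values were seen.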

Additional observations from a re-analysis of the deposited data

Results flagged for a closer look

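Over named genes and list levels, 168 groups of 5 arrays were tested. In 6 of them 1 array lay apart from the other 4 by more than Dixon's critical value of 0.71 of the range. Chance alone gives about 1 in 20 groups, a larger share than was found here. Homogenate mimic array 4 was the highest for 4 genes: Mrpl57 at 7.50 (others 6.18 to 6.56), Mrps18c at 9.13 (8.48 to 8.64), Mrps21 at 6.43 (6.04 to 6.09) and Mrpl23 at 6.57 (6.36 to 6.42). Synaptoneurosome mimic array 3 was the lowest for Mrpl53, at 6.60 (6.90 to 7.02). Synaptoneurosome mimic array 2 was the lowest for Mrps11, a protein of the small subunit platform, at 6.43 (6.77 to 6.87).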

How the results depend on the processing

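Quantile scaling over the 20 arrays moved the counts of falling members by over 1.5 times, to 16 (from 41) in control rats and to 40 (from 62) in mimic rats, with medians of -0.16 and -0.31; the cause was not tested. With 1 array left out, control rats had 30 (without synaptoneurosome control array 3) to 49 falls and mimic rats 51 to 63. With the replicate block, which pairs same-numbered arrays, 46 and 63 members fell, and it moved no count of calls by over 1.5 times and changed no named call but those of Mrpl12, Mrpl44 and Mrps18c in control rats. With only the groups compared, 32 and 63 members fell, beside 23.2% and 31.5% of all tested genes. In that fit 5 named calls were lost (Mrpl36, Mrps18a, Mrps25 and Mrps28 in control rats, Mrps24 in mimic rats). With array weights 48 and 64 members fell. Shares of all tested genes that fell are not given here for the replicate block, the array weights or the fits without 1 array. No member was called under the mimic in any of these settings. Among the 40 named members, 3181 values kept their side of the threshold, 69 calls were lost, 26 were gained and none reversed. Of the lost calls, 20 came under quantile scaling (11 in control and 9 in mimic rats). Leaving out 1 array ended a call for 8 genes, Mrps25 in control rats among them (adjusted p 0.0524 to 0.0848, limma, without homogenate control array 1, 2 or 5 or synaptoneurosome control array 1, 3 or 4). Signal over background was not used here. Over the 75 members the difference between fractions correlated with the mean level at r = -0.34 in control and -0.45 in mimic rats, against 0.02 and -0.06 over all tested genes.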
